A study of Mus musculus with 36 samples.

Results

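The 9 genes described here encode proteins of plasminogen activation and of blood coagulation: Plat, Plau, Plaur, Serpine2, Anxa2, S100a10, F3, F10 and F13a1. They were taken by symbol from the 54532 Ensembl gene identifiers of a read count table of mouse brain, and all 9 were among the 18438 genes tested. They were selected on their function and on group differences in these same read counts, known from earlier results, so their differences between EAE and naive brain are given as a description: no p-value is printed for them, and counts past a threshold describe the list and support nothing. Experimental autoimmune encephalomyelitis (EAE) is a model of inflammatory demyelination. It was induced in wild-type C57BL/6 mice with the myelin peptide MOG35-55 in complete Freund's adjuvant and pertussis toxin. Brains taken at day 19 came from EAE mice gavaged daily with farnesol at 100 mg/kg in corn oil (n = 10), EAE mice gavaged with corn oil as vehicle (n = 9), EAE mice without treatment (n = 9) and naive healthy mice (n = 8). No group received adjuvant and toxin without the peptide, and no naive group was gavaged. Nothing in the labels gives the age or sex of the mice, and replicate numbers name libraries within a group.

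Plasminogen is a circulating zymogen that tissue-type and urokinase-type plasminogen activators cut into plasmin, which dissolves fibrin and also acts on matrix proteins. Cell surface receptors hold the activators and plasminogen close together, and serpin inhibitors limit them. Coagulation runs the other way: tissue factor starts it, factor X and thrombin carry it forward, and factor XIII cross-links the fibrin that results. Fibrin deposits in the brain and spinal cord are a known feature of EAE, since blood proteins enter where the blood-brain barrier leaks.

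The libraries held 14.71 M to 24.21 M counts each. Values are CPM (counts scaled to library size) after TMM scaling, and changes are log2 ± standard error (SE) from edgeR. The libraries also formed 2 sets, which no label names, by their level of CT010467.1, a ribosomal RNA gene. It measured 1284 to 2784 CPM in the 21 libraries of set 1 (farnesol replicates 1 to 3, all vehicle and all untreated libraries). It measured 5091 to 17690 CPM in the 15 libraries of set 2 (farnesol replicates 4 to 10 and all naive libraries). Vehicle and untreated EAE were therefore set against naive brain only across the library sets, and the farnesol libraries alone lie in both sets. A model with library set as a term rests on them for those comparisons. The summed level of 6 neuronal marker genes was 4760 to 5610 CPM in farnesol, 4670 to 5440 CPM in vehicle, 4970 to 5890 CPM in untreated and 5720 to 6310 CPM in naive libraries, so the labelled tissue held its defining transcripts. In brain RNA, more cells of a type and more RNA per cell cannot be told apart.

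Promoter sequence from RefSeq (GRCm38.p6) was matched for 6 of the 9 genes, which leaves Plat, Plau and S100a10 named only. Windows of 250 bases before to 50 bases after each start were searched on both strands for TGANTCA (an AP-1 motif), GGGCGG (a GC box), TATAAA, TTCNNNGAA (a STAT motif) and an NF-kappaB motif. Upstream bases are shown for Plaur, Anxa2 and F3, the 3 genes that held TGANTCA, and for F10 and F13a1, whose levels stood furthest apart from naive brain with those of Plaur. F13a1 had 2 windows, and the one at the outer start of the gene is shown. Capitals mark every motif match.
Plaur (chr7:24462233-24462482, plus strand): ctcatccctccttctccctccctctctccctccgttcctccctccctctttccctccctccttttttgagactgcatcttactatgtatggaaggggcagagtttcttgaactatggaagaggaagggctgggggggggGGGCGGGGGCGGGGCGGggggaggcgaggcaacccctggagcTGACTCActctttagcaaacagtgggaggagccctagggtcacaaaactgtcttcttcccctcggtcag
Anxa2 (chr9:69453433-69453682, plus strand): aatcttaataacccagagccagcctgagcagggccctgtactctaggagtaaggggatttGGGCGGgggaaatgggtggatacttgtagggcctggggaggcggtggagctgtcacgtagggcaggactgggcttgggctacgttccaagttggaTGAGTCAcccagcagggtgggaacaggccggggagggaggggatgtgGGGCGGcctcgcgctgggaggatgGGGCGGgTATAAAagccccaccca
F3 (chr3:121723287-121723536, plus strand): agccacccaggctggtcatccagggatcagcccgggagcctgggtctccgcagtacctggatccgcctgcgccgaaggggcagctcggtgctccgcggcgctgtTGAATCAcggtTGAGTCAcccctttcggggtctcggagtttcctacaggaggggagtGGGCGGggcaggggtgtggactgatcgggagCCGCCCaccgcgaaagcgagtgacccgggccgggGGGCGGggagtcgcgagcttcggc
F10 (chr8:13037058-13037307, plus strand): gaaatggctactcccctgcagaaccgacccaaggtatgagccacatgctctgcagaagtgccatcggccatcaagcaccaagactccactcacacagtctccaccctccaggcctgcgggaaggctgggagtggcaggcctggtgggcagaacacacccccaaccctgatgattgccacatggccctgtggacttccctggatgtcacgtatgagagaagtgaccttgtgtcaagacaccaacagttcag
F13a1 (chr13:37050245-37050494, minus strand): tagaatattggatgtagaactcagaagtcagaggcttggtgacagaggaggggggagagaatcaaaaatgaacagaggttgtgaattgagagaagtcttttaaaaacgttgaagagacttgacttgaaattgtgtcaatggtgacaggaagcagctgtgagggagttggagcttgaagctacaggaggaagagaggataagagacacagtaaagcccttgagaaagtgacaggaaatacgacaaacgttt
TGANTCA was found in 3 of the 6 genes, against 9.0% of all 27025 genes with a window. F3 held it at 2 places. GGGCGG was found in 4 of the 6 genes (38.2% of all genes) and TATAAA in 2 (15.7%), of which the F3 match lay after the start. TTCNNNGAA and the NF-kappaB motif had no match in the 6 genes, against 9.6% and 1.9% of all genes. The F10 and F13a1 windows held none of the 5 motifs. Each match is a run of letters and no measure of binding.

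The 9 genes spanned a wide range of levels. Per kilobase of exon, the mean over all 36 libraries was 23.7 CPM for Serpine2, 17.5 CPM for F3, 16.9 CPM for S100a10, 6.0 CPM for Plat and 4.78 CPM for Anxa2. It was 1.32 CPM for Plau, 0.65 CPM for F13a1, 0.553 CPM for Plaur and 0.375 CPM for F10. The inhibitor, the coagulation starter and the receptor subunit thus had the highest levels per length, and the urokinase receptor and factor X the lowest. All levels below are CPM, not per length.

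**Figure D1:**
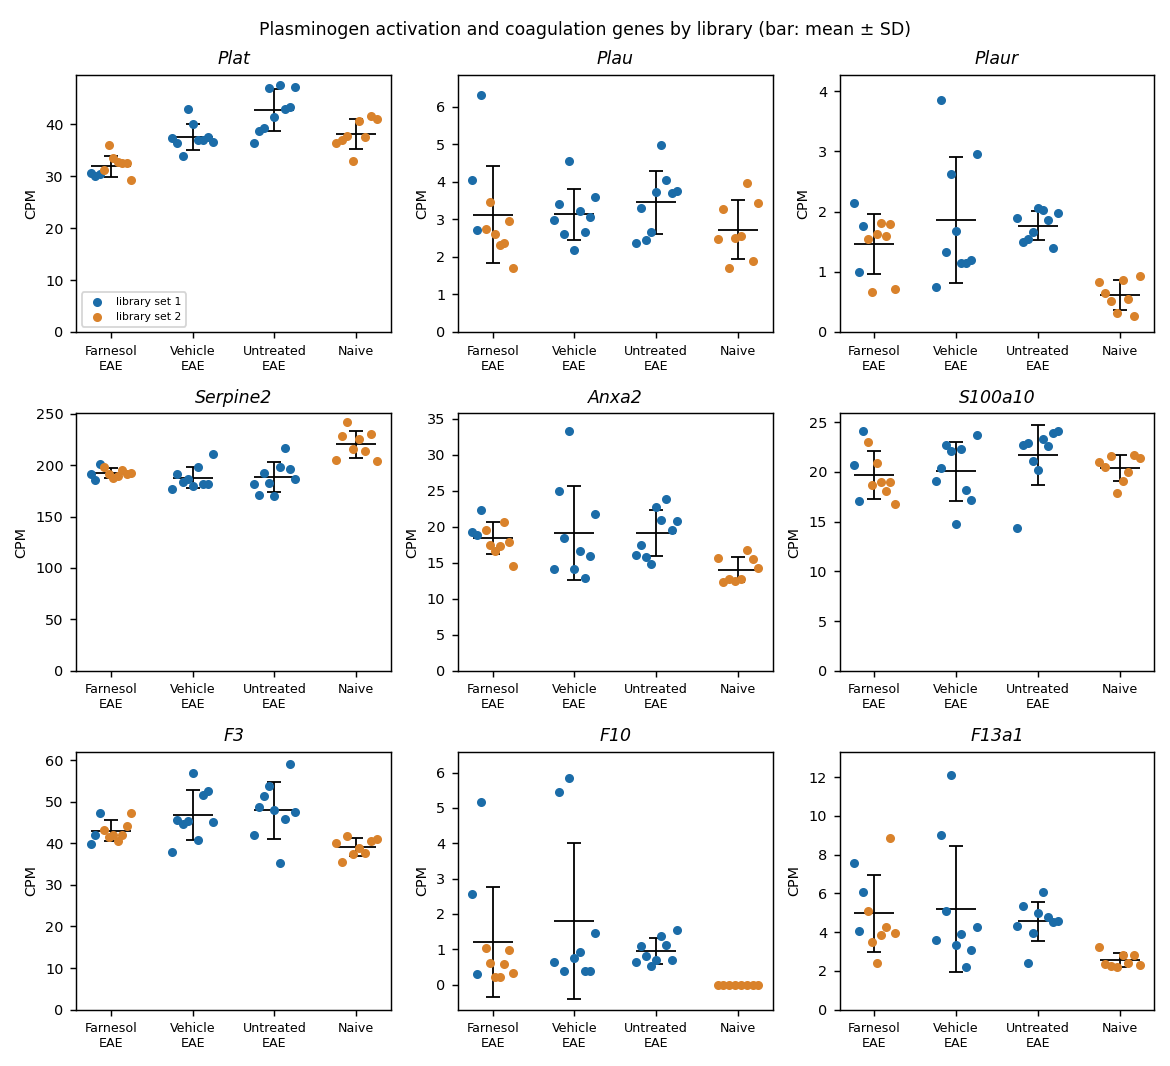
CPM of each gene (vertical axis) in every library of the farnesol EAE, vehicle EAE, untreated EAE and naive groups, with the group mean and SD as bars and library set by colour. F10 lies at 0 in all 8 naive libraries, and the farnesol libraries of Plat lie below all 9 untreated ones.

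Plat (ENSMUSG00000031538, chr8:22757727-22782844, GRCm38, plus strand) encodes tissue-type plasminogen activator, the protease that turns plasminogen into plasmin on fibrin and that neurons also release. The lowest, median and highest levels of Plat were 29.3, 31.8 and 36 CPM in farnesol brains, 34.0, 37.0 and 42.9 CPM in vehicle brains, 36.4, 43 and 47.5 CPM in untreated brains, and 33.0, 37.7 and 41.6 CPM in naive brains. Farnesol brains were the low group and untreated brains the high group, with vehicle and naive brains between them. Against naive brain the log2 change of Plat was -0.26 ± 0.05 in farnesol, -0.02 ± 0.05 in vehicle and 0.16 ± 0.05 in untreated EAE. Of the 10 farnesol libraries, 8 lay below every naive library, and of the 9 untreated libraries, 5 lay above every naive one.

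Plau (ENSMUSG00000021822, chr14:20836660-20843385, plus strand) encodes urokinase, the plasminogen activator linked to cell migration. Its mean was 3.12 ± 1.29 CPM in farnesol, 3.14 ± 0.679 CPM in vehicle, 3.45 ± 0.846 CPM in untreated and 2.73 ± 0.778 CPM in naive brains (SD; n = 10, 9, 9 and 8). All 4 groups overlapped, and the log2 changes against naive were 0.21 ± 0.19, 0.20 ± 0.20 and 0.34 ± 0.20 in farnesol, vehicle and untreated EAE.

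Plaur (ENSMUSG00000046223, chr7:24462484-24475968, plus strand) encodes the urokinase receptor, which is anchored in the membrane of leukocytes and other migrating cells and focuses urokinase there. The lowest, median and highest levels of Plaur were 0.66, 1.61 and 2.15 CPM in farnesol brains, 0.755, 1.33 and 3.86 CPM in vehicle brains, 1.40, 1.86 and 2.06 CPM in untreated brains, and 0.271, 0.591 and 0.926 CPM in naive brains. All 9 untreated libraries, 8 of 9 vehicle libraries and 8 of 10 farnesol libraries lay above every naive library. The log2 changes against naive were 1.27 ± 0.29 in farnesol, 1.61 ± 0.29 in vehicle and 1.54 ± 0.29 in untreated EAE. The receptor gene was thus 2.42-, 3.05- and 2.90-fold the naive level in farnesol, vehicle and untreated EAE, while its ligand gene Plau was 1.15-, 1.15- and 1.27-fold.

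Serpine2 (ENSMUSG00000026249, chr1:79794197-79861180, minus strand) encodes protease nexin-1, a glial serpin that inhibits thrombin and both plasminogen activators. Serpine2 had lowest, median and highest levels of 186, 191 and 201 CPM in farnesol brains, 177, 184 and 211 CPM in vehicle brains, 170, 187 and 217 CPM in untreated brains, and 204, 220 and 242 CPM in naive brains. All 3 EAE groups were the low ones, and the farnesol libraries did not overlap the naive libraries. The differences were small, at -0.20 ± 0.04, -0.23 ± 0.04 and -0.23 ± 0.04 on the log2 scale in farnesol, vehicle and untreated EAE. Thus in farnesol EAE both Plat and this inhibitor of its product were below naive brain, while in untreated EAE Serpine2 was below and Plat above it.

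Anxa2 (ENSMUSG00000032231, chr9:69453620-69491795, plus strand) encodes annexin A2, which with S100a10 forms a cell surface receptor for plasminogen and its tissue-type activator. The lowest, median and highest levels of Anxa2 were 14.6, 18.3 and 22.3 CPM in farnesol brains, 12.9, 16.6 and 33.3 CPM in vehicle brains, 14.8, 19.5 and 23.8 CPM in untreated brains, and 12.3, 13.5 and 16.8 CPM in naive brains. The EAE medians all lay above the naive median, and vehicle replicate 4 held the highest value. The log2 changes against naive were 0.40 ± 0.13, 0.45 ± 0.13 and 0.45 ± 0.14 in farnesol, vehicle and untreated EAE. S100a10 (ENSMUSG00000041959, chr3:93555080-93564643, plus strand), the partner subunit that binds plasminogen, averaged 19.7 ± 2.4 CPM in farnesol, 20.1 ± 2.97 CPM in vehicle, 21.7 ± 3.01 CPM in untreated and 20.4 ± 1.34 CPM in naive brains (SD). The groups of both genes overlapped in every comparison, and S100a10 had log2 changes of -0.05 ± 0.09, -0.03 ± 0.09 and 0.09 ± 0.09 in farnesol, vehicle and untreated EAE.

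F3 (ENSMUSG00000028128, chr3:121723537-121735048, plus strand) encodes tissue factor, the membrane protein that starts coagulation and that astrocytes make in brain. Levels of F3 (lowest, median and highest) were 39.9, 42.0 and 47.3 CPM in farnesol brains, 38.0, 45.4 and 56.9 CPM in vehicle brains, 35.2, 48.0 and 59.1 CPM in untreated brains, and 35.5, 39.4 and 41.7 CPM in naive brains. Vehicle and untreated brains spread more widely than farnesol and naive brains. The log2 changes against naive were 0.14 ± 0.07 in farnesol, 0.26 ± 0.07 in vehicle and 0.29 ± 0.07 in untreated EAE.

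F10 (ENSMUSG00000031444, chr8:13037308-13056676, plus strand) encodes factor X, whose activated form cuts prothrombin and which is made mainly in liver. F10 had no count in any of the 8 naive libraries, where 3 counts over the group would be 0.0198 CPM. Its lowest, median and highest levels were 0.209, 0.601 and 5.18 CPM in farnesol brains, 0.395, 0.761 and 5.85 CPM in vehicle brains, and 0.521, 0.821 and 1.55 CPM in untreated brains. Every EAE library held F10 counts, and the group means were at least 60.8-fold, 91.3-fold and 47.8-fold higher than that naive bound in farnesol, vehicle and untreated EAE. The high values came from a few brains: vehicle replicates 2 and 4 at 5.44 and 5.85 CPM, and farnesol replicates 1 and 3 at 2.56 and 5.18 CPM.

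F13a1 (ENSMUSG00000039109, chr13:36867178-37050244, minus strand) encodes the A subunit of factor XIII, the transglutaminase that cross-links fibrin, which macrophages and platelets carry. The lowest, median and highest levels of F13a1 were 2.41, 4.17 and 8.85 CPM in farnesol brains, 2.21, 3.90 and 12.1 CPM in vehicle brains, 2.41, 4.60 and 6.07 CPM in untreated brains, and 2.20, 2.38 and 3.24 CPM in naive brains. Of the EAE libraries, 9 of 10 farnesol, 7 of 9 vehicle and 8 of 9 untreated ones lay above every naive library. The log2 changes against naive were 0.97 ± 0.26 in farnesol, 1.03 ± 0.26 in vehicle and 0.85 ± 0.26 in untreated EAE. Antisense genes overlap Anxa2 and F13a1, with means of at most 0.046 CPM, and strand use in counting is not given in the sources used here.

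At an adjusted p below 0.05 in edgeR, 6 of the 9 genes passed in farnesol EAE against naive (4 higher, 2 lower), where 34.2% of all genes passed (17.9% higher, 16.3% lower). In vehicle EAE 6 passed (5 higher, 1 lower), where 31.5% of all genes did (16.3% higher, 15.2% lower). In untreated EAE 7 passed (6 higher, 1 lower), where 24.9% of all genes did (13.6% higher, 11.3% lower). The median log2 change of the 9 genes was 0.21, 0.26 and 0.34 in farnesol, vehicle and untreated EAE, against 0.01, 0.00 and -0.01 over all genes, and F10 at its bound left these medians as they were. The groups did not overlap for 2 genes in farnesol EAE (F10 and Serpine2), where 4.82% of all genes did not. They did not overlap for F10 in vehicle EAE (7.24% of all genes) and for F10 and Plaur in untreated EAE (3.62%). Because the genes were listed with such values known, these counts describe the list.

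Within library set 2, farnesol EAE (7 libraries) could be set against naive brain without a difference of set. There the log2 changes were 1.20 for Plaur, 0.85 for F13a1, 0.35 for Anxa2, 0.14 for F3, -0.19 for Serpine2 and -0.22 for Plat, and those of Plau and S100a10 were -0.06 and -0.07. F10 averaged 0.571 CPM in those 7 farnesol libraries. When the library set was added to the model of all libraries, none of the 9 genes passed in vehicle or untreated EAE against naive, although Plaur kept log2 changes of 1.37 and 1.30 there.

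**Figure D2:**
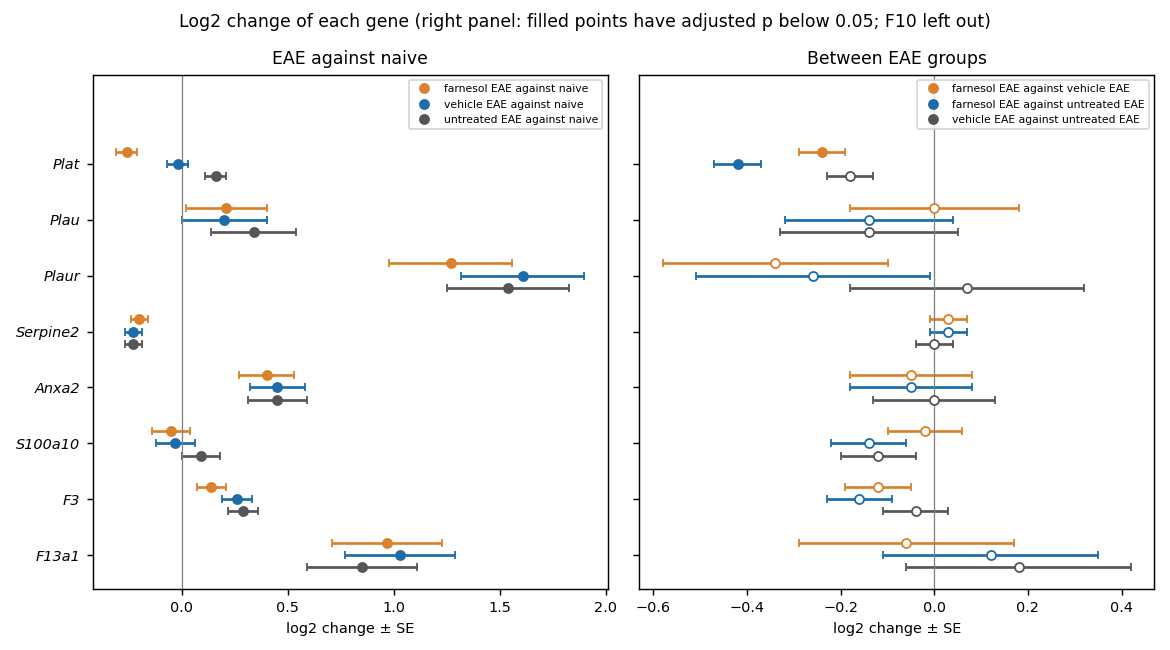
Log2 change ± SE (horizontal axis) of 8 genes against naive brain (left, a description with no test) and between EAE groups (right, filled where adjusted p is below 0.05). Plaur and F13a1 stand furthest right against naive brain, and Plat has the filled points between EAE groups; F10 is left out because naive libraries held no count.

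Marker genes of infiltrating leukocytes were also higher in EAE brain. All 9 neutrophil markers and 6 of 7 monocyte markers passed as higher against naive brain in farnesol, vehicle and untreated EAE alike. Summed monocyte markers were 107 to 181 CPM in farnesol, 95.8 to 254 CPM in vehicle, 97.2 to 148 CPM in untreated and 81.8 to 94.1 CPM in naive libraries, of which 2 genes (Fn1 and Vcan) were above 1 CPM in naive brain. Summed neutrophil markers were 32.2 to 90.2 CPM in farnesol, 41.6 to 89.7 CPM in vehicle, 21.5 to 94.4 CPM in untreated and 6.17 to 9.57 CPM in naive libraries. No marker of either list was at 0 throughout a group. Platelet markers summed to 4.51 to 6.89 CPM in farnesol, 4.41 to 6.83 CPM in vehicle, 3.99 to 6.76 CPM in untreated and 3.52 to 7.10 CPM in naive libraries. Of 4 platelet markers tested, 2 passed as higher in farnesol and 1 each in vehicle and untreated EAE against naive. As higher, 17.9%, 16.3% and 13.6% of all genes passed in farnesol, vehicle and untreated EAE. In each comparison 2 of the 4 markers had log2 changes above 0 and 2 below 0. Ppbp, a platelet chemokine, averaged 0.477 ± 0.255 CPM in farnesol, 0.418 ± 0.242 CPM in vehicle, 0.498 ± 0.426 CPM in untreated and 0.192 ± 0.0921 CPM in naive brains, and passed in farnesol and untreated EAE. Itga2b averaged 3.22, 3.17 and 2.55 CPM in farnesol, vehicle and untreated brains against 2.43 CPM in naive brains. It passed as higher in farnesol and vehicle EAE. In farnesol, vehicle and untreated brains Pf4 averaged 0.778, 0.741 and 0.83 CPM against 0.841 CPM in naive brains. Gp1ba averaged 0.866, 1.0 and 0.982 CPM in that order against 1.06 CPM. Gp9, which had too few counts to be tested, averaged 0.0917, 0.206 and 0.202 CPM in that order against 0.444 CPM. The part of these cells in the differences of the 9 genes was not tested.

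Between the EAE groups, Plat was the gene of the 9 that passed. P-values here are adjusted over all genes, and since the genes were listed with earlier results known they are no independent evidence. It was lower in farnesol than in untreated EAE by a log2 change of -0.42 ± 0.05 (edgeR adjusted p = 1.18e-05), with all 10 farnesol libraries below all 9 untreated libraries. In that comparison 1 of the 9 genes passed, where 1.87% of all genes did, and groups that did not overlap made up 0.103% of all genes. Plat was lower in farnesol than in vehicle EAE by -0.24 ± 0.05 (adjusted p = 0.0477), with 9 of 10 farnesol libraries below all vehicle libraries. In that comparison too 1 of the 9 genes passed, where 0.0922% of all genes did (0.0814% higher, 0.0108% lower), and no gene of the 9 had groups without overlap (0.00542% of all genes). In vehicle against untreated EAE the change of Plat was -0.18 ± 0.05 (edgeR p = 0.00121, adjusted p = 0.224). None of the 9 genes passed in that comparison with edgeR, DESeq2 or limma-voom, which called 0.0217%, 0.329% and 0.0814% of all genes. At an unadjusted edgeR p below 0.05 there was 1 of the 9 genes, beside 1522 of all 18438 genes. All 9 genes had overlapping groups there, and 0.0108% of all genes did not.

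The difference of Plat from vehicle lay near the threshold and was fragile. The call was lost in 24 of 36 fits that left out 1 library: farnesol replicates 1, 2, 4, 6, 7, 8, 9 or 10, vehicle replicates 1, 2, 4, 5, 6, 7, 8 or 9, untreated replicates 5 or 8, and naive replicates 1, 2, 3, 5, 6 or 8. The change over those 36 fits ran between -0.26 and -0.21, with adjusted p between 0.0194 and 0.128. The farnesol brains of library set 1, which share their set with vehicle and untreated brains, measured 30.0, 30.4 and 30.6 CPM and lay below all 9 vehicle and all 9 untreated libraries. Within set 1 the change of Plat was -0.31 ± 0.06 against vehicle (adjusted p = 0.0957) and -0.50 ± 0.09 against untreated EAE (adjusted p = 0.134), with 3 farnesol libraries in each.

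The other 8 genes did not pass between EAE groups, and their intervals differ in width. In farnesol against vehicle EAE, Serpine2 changed by 0.03 ± 0.04, S100a10 by -0.02 ± 0.08 and Anxa2 by -0.05 ± 0.13. Less was resolved for Plau (0.00 ± 0.18), Plaur (-0.34 ± 0.24), F13a1 (-0.06 ± 0.23) and F10 (-0.55 ± 0.55), which had the largest standard errors of the 9. F3 changed by -0.12 ± 0.07 against vehicle (adjusted p = 0.94) and by -0.16 ± 0.07 against untreated EAE (adjusted p = 0.247).

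Brains of the same EAE group differed widely in some of these genes, and that spread was not used to list them. F10 had a coefficient of variation of 130% in farnesol, 122% in vehicle and 38.1% in untreated brains, and F13a1 had 39.9%, 62.7% and 22.3% in farnesol, vehicle and untreated brains. Serpine2 varied by 2.44%, 5.65% and 7.84% and Plat by 6.27%, 6.66% and 9.51% in farnesol, vehicle and untreated brains. The spread was set against 6 marker scores, each the mean log2(CPM + 0.5) of the marker genes of a cell type, over the 28 EAE libraries with each value centred on its group mean. Permutation within groups gave two-sided p-values, adjusted by Benjamini-Hochberg over the 54 relations, and 27 passed (26 positive, 1 negative). The smallest p that the 100000 draws allow is 1e-05.

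F10, Anxa2, F13a1 and Plau followed the monocyte score closely. F10 had r = 0.89 and rho = 0.84 (both permutation p = 1e-05, adjusted p = 7.71e-05), and r = 0.83 without the 2 libraries farthest from the median score. Within groups the r of F10 was 0.93 in farnesol, 0.96 in vehicle and 0.64 in untreated libraries, and it was 0.89 in set 1 and 0.90 in the 7 farnesol libraries of set 2. Anxa2 had r = 0.87 and rho = 0.84 (both permutation p = 1e-05, adjusted p = 7.71e-05; 0.81 without 2 libraries), F13a1 r = 0.85 and rho = 0.83 (both permutation p = 1e-05, adjusted p = 7.71e-05; 0.81 without 2 libraries), and Plau r = 0.81 and rho = 0.84 (both permutation p = 1e-05, adjusted p = 7.71e-05; 0.77 without 2 libraries). In set 1 the r was 0.91 for Anxa2, 0.88 for F13a1 and 0.82 for Plau, and in the farnesol libraries of set 2 it was 0.51, 0.69 and 0.75 for Anxa2, F13a1 and Plau. Among all genes, 1.69% had an r with this score at or above that of F10, 2.18% at or above that of Anxa2, 2.69% at or above that of F13a1 and 3.33% at or above that of Plau, and the median r was -0.03. The same 4 genes also passed with microglia, astrocytes and border macrophages (permutation adjusted p at most 0.00642). With microglia and astrocytes the r was 0.69 and 0.72 for F10 and 0.73 and 0.68 for Anxa2. It was 0.63 and 0.64 for F13a1 and 0.76 and 0.77 for Plau. Of all genes, 2.99% had an r with astrocytes at or above that of Plau. With border macrophages 0.977% did for F10 and 1.75% for Anxa2. The relations were thus not particular to monocytes. The 4 brains with high F10 named above all had monocyte scores above their group mean.

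**Figure D3:**
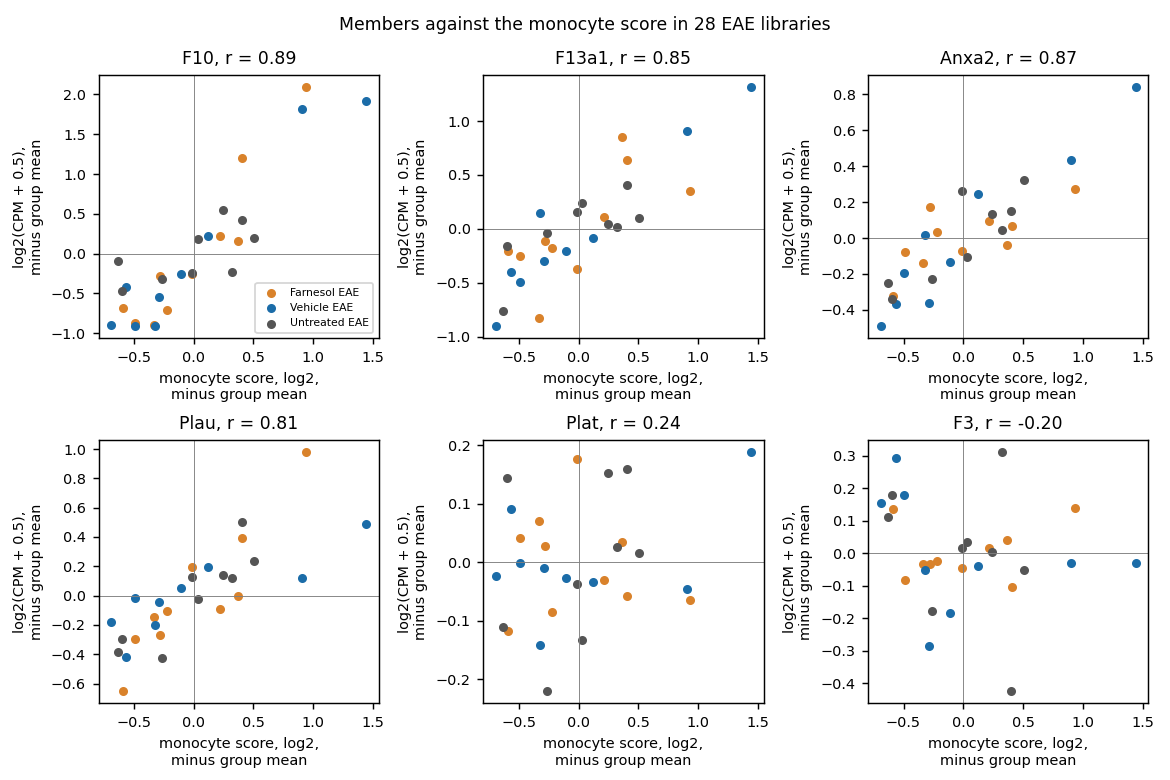
Log2(CPM + 0.5) of 6 genes (vertical axes) against the monocyte score (horizontal axes) in the 28 EAE libraries, both as deviations from the group mean, with groups by colour. F10, F13a1, Anxa2 and Plau rise along the score at r between 0.81 and 0.89, while Plat and F3 have r of 0.24 and -0.20.

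Plaur and S100a10 were related to the monocyte score more loosely. Plaur had r = 0.59 and rho = 0.55 (permutation p = 0.00505 and 0.00387, adjusted p = 0.0124 and 0.00995; 0.56 without 2 libraries), and within groups its r was 0.44 in farnesol, 0.74 in vehicle and 0.28 in untreated libraries, with 0.66 in set 1 and 0.23 in the farnesol libraries of set 2. S100a10 had r = 0.51 and rho = 0.51 (permutation p = 0.00751 and 0.00797, adjusted p = 0.0169 and 0.0179; 0.45 without 2 libraries), with 0.50 in set 1 and 0.51 in the farnesol libraries of set 2. Serpine2, Plat and F3 did not pass with this score by Pearson's r (0.37, 0.24 and -0.20, adjusted p = 0.0952, 0.292 and 0.425), while the rank correlation of Serpine2 did (rho = 0.48, permutation p = 0.0152, adjusted p = 0.0329).

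F13a1 was the gene closest to border macrophage markers, the perivascular and meningeal macrophages (r = 0.78 and rho = 0.80, permutation p = 2e-05 and 1e-05, adjusted p = 0.00012 and 7.71e-05; 0.78 without 2 libraries). Its r was 0.85 in set 1 and 0.59 in the farnesol libraries of set 2, and of all genes 0.0434% had an r with that score at or above 0.78. The neutrophil score passed with Anxa2 alone by Pearson's r (r = 0.40, rho = 0.43, permutation p = 0.0208 and 0.0188, adjusted p = 0.0433 and 0.0377), and with F13a1 by rank (r = 0.33, rho = 0.40, permutation p = 0.0503 and 0.0244, adjusted p = 0.0906 and 0.0458). F3 had the only negative relation that passed, with the endothelium score (r = -0.55, rho = -0.65, permutation p = 0.00623 and 0.00073, adjusted p = 0.0146 and 0.00232). Its r was -0.68 in farnesol, -0.45 in vehicle and -0.62 in untreated libraries, and -0.49 without the 2 farthest libraries. It was -0.57 in set 1 and -0.49 in the farnesol libraries of set 2.

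By list, 6 genes passed with the monocyte score, 7 with microglia, 6 with astrocytes, 5 with border macrophages, 2 with endothelium and 1 with neutrophils. Some of these relations were common among all genes. Of all genes, 11.6% had an r with microglia at or above that of Plaur, and 9.08% at or above that of Serpine2. With monocytes 7.1% did for Plaur and 8.77% for S100a10. For Serpine2 the share was 7.72% with astrocytes and 0.483% with endothelium. Plat was the 1 gene of the 9 that passed with no score, its closest being astrocytes (r = 0.43, rho = 0.29, permutation p = 0.0297 and 0.138, adjusted p = 0.0573 and 0.207; 0.23 without 2 libraries). Serpine2 passed with astrocytes (r = 0.57, rho = 0.68, permutation p = 0.00255 and 0.00035, adjusted p = 0.00725 and 0.00135), microglia (r = 0.50, rho = 0.58, permutation p = 0.0172 and 0.00543, adjusted p = 0.0371 and 0.0133) and endothelium (r = 0.57, rho = 0.47, permutation p = 0.00498 and 0.0246, adjusted p = 0.0124 and 0.0458). The relation of Serpine2 to endothelium was not alike in the groups, at r = -0.22 in farnesol, 0.85 in vehicle and 0.61 in untreated libraries. Within the 7 farnesol libraries of set 2, the 26 positive relations had r between -0.15 (Serpine2 with microglia) and 0.90 (F10 with monocytes). The scores share libraries and depth, and 6 of the 9 genes passed with 3 or more scores at once.

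**Figure D4:**
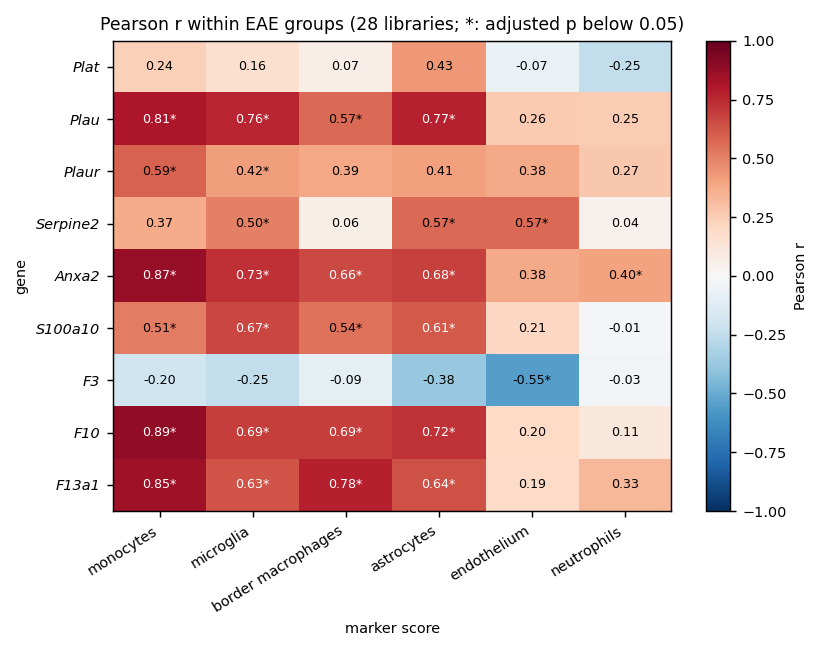
Pearson r of each of the 9 genes (rows) with 6 cell type marker scores (columns) over the 28 EAE libraries, centred on group means, with an asterisk where adjusted p is below 0.05. F10, F13a1, Anxa2 and Plau have their highest r with monocytes, Plat has no asterisk, and F3 has its asterisk at a negative r with endothelium.

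The genes also varied with each other, as a description over the same 28 libraries. F10 and F13a1 had r = 0.77, Anxa2 and F13a1 0.75, Plau and F10 0.74, and Anxa2 and F10 0.73, and the receptor partners Anxa2 and S100a10 had 0.49. Urokinase and its receptor gene, Plau and Plaur, had r = 0.37. Among 15682 genes with a mean above 1 CPM, the ones most like F10 were Il12rb1, Stat3 and Acod1 (each r = 0.91), and those most like F13a1 were Stab1 (0.87), a gene of the border macrophage list, Pim1 (0.85) and Anpep (0.85). Those most like Anxa2 were Vwa5a (0.87), C5ar1 (0.87) and Tbxas1 (0.86), and those most like Plau were Gimap3, Apobr and Vav1 (each 0.87). Plaur had Nos2 (0.79), Nans (0.74) and Ltbr (0.73), S100a10 had Lpar6 (0.82), H2-M3 (0.81) and Hpgd (0.80), and Serpine2 had Evi2a and Cdc42ep2 (each 0.75). Plat had Twsg1 (0.78), Pms1 (0.76) and A930024E05Rik (0.71), and F3 had Rhob (0.76), Polr3e (0.75) and Ifrd1 (0.74).

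The substrate of the activators was barely measured. Plg, the plasminogen gene, averaged 0.0857 CPM over all libraries and was not tested, and neither were the fibrinogen genes Fga (0.0342 CPM), Fgb (0.0414 CPM) and Fgg (0.0367 CPM) or prothrombin F2 (0.138 CPM). F7, the partner of tissue factor, averaged 0.344 CPM. In all, 16 pathway genes had too few counts to test.

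Of 10 other plasminogen system genes tested, 1 rose and 2 fell in farnesol EAE against naive, 1 rose and 2 fell in vehicle EAE, and 2 rose and 1 fell in untreated EAE. Over all genes tested, 34.2% passed in farnesol, 31.5% in vehicle and 24.9% in untreated EAE, so this list lay near that share. This list and the lists below were chosen with earlier results known. Their genes were mostly named by smallest p in untreated EAE against naive. The p-values against naive printed for them here and below are therefore a description and no independent evidence. Plgrkt, a plasminogen receptor of the cell surface, rose by 0.48 ± 0.11, 0.51 ± 0.11 and 0.45 ± 0.11 (edgeR adjusted p = 0.00109, 0.000626 and 0.00283) in farnesol, vehicle and untreated EAE. Eno1, the glycolytic enolase that can bind plasminogen at the surface, had changes of -0.31 ± 0.05, -0.25 ± 0.05 and -0.19 ± 0.05 in farnesol, vehicle and untreated EAE (adjusted p = 3.83e-06, 0.000104 and 0.00281) and so fell in all 3. Serpinf2, the main plasmin inhibitor, rose by 1.47 ± 0.52 in untreated EAE (edgeR adjusted p = 0.0342), at 0.616 ± 0.385 CPM against 0.221 ± 0.106 CPM in naive brain. It averaged 0.512 ± 0.426 CPM in farnesol and 0.415 ± 0.329 CPM in vehicle brain, and did not pass in either. With library set as a term it did not pass in untreated EAE.

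Of 13 other coagulation genes tested, 6 rose and 1 fell in farnesol EAE, and 3 rose and 1 fell in vehicle and in untreated EAE. The shares of all genes that passed were 34.2%, 31.5% and 24.9% in farnesol, vehicle and untreated EAE. Vwf, the von Willebrand factor that endothelium releases, was at 72.6 ± 7.49 CPM in farnesol, 66.3 ± 20.0 CPM in vehicle, 63.8 ± 14.3 CPM in untreated and 23.4 ± 2.78 CPM in naive brain (SD). It rose by 1.64 ± 0.14, 1.51 ± 0.14 and 1.45 ± 0.14 in farnesol, vehicle and untreated EAE (adjusted p = 1.77e-10, 1.61e-09 and 4.88e-09). Procr, the endothelial protein C receptor, rose by 0.81 ± 0.29, 0.86 ± 0.29 and 0.83 ± 0.29 in farnesol, vehicle and untreated EAE (adjusted p = 0.028, 0.0234 and 0.0355). Pros1, protein S, rose by 0.51 ± 0.15, 0.43 ± 0.15 and 0.50 ± 0.15 in farnesol, vehicle and untreated EAE (adjusted p = 0.00717, 0.0249 and 0.0126). With library set as a term, Vwf still passed in all 3 comparisons with naive brain, and neither Procr nor Pros1 passed in any, while Pros1 passed in farnesol EAE within set 2. Thbd, the thrombomodulin that is also anticoagulant, changed by -0.20 ± 0.09, -0.16 ± 0.10 and -0.07 ± 0.10 in farnesol, vehicle and untreated EAE and did not pass (edgeR adjusted p = 0.094, 0.199 and 0.622), a gene chosen after its values were seen. Of 4 protease-activated receptors, F2rl1 rose in farnesol (1.59 ± 0.42, adjusted p = 0.00313) and vehicle EAE (1.36 ± 0.43, adjusted p = 0.0133). In untreated EAE it changed by 1.10 ± 0.44 (adjusted p = 0.0599).

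Of 14 partners of the urokinase receptor and of fibrin, 5 rose and 2 fell in farnesol EAE, 5 rose and 2 fell in vehicle EAE, and 6 rose and 2 fell in untreated EAE. Across all genes, 34.2%, 31.5% and 24.9% passed in farnesol, vehicle and untreated EAE. Itgam and Itgb2 encode the chains of Mac-1, the leukocyte integrin that binds fibrin, and Itgax the alpha chain of a related integrin. Itgam rose by 1.09 ± 0.20, 1.02 ± 0.20 and 1.22 ± 0.20 in farnesol, vehicle and untreated EAE (adjusted p = 8e-05, 0.000221 and 3.55e-05). Itgax rose by 4.27 ± 0.76, 4.69 ± 0.75 and 4.87 ± 0.75 in farnesol, vehicle and untreated EAE (adjusted p = 5.12e-05, 1.55e-05 and 1.38e-05). Vtn, the vitronectin that the urokinase receptor binds, had changes of -0.44 ± 0.06, -0.35 ± 0.06 and -0.33 ± 0.06 in farnesol, vehicle and untreated EAE (adjusted p = 4.42e-07, 2.05e-05 and 6.13e-05) and so fell.

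Of 11 matrix proteases and inhibitors, 4 rose and 2 fell in each comparison with naive brain. Beside this list and those of annexins and S100 genes, 34.2%, 31.5% and 24.9% of all genes passed in farnesol, vehicle and untreated EAE. Mmp9, the gelatinase that plasmin can help activate, rose by 0.93 ± 0.20, 1.07 ± 0.20 and 0.94 ± 0.20 in farnesol, vehicle and untreated EAE (adjusted p = 0.000387, 9.22e-05 and 0.000604). Mmp12, the macrophage elastase, averaged 0.445 ± 0.369 CPM in farnesol, 0.936 ± 1.0 CPM in vehicle and 0.544 ± 0.325 CPM in untreated brain and had no count in naive brain. Of 7 other annexins, 2 rose and 1 fell in farnesol and in vehicle EAE, and 3 rose in untreated EAE, with Anxa1 at 0.99 ± 0.20, 1.02 ± 0.20 and 0.93 ± 0.20 in farnesol, vehicle and untreated EAE (adjusted p = 0.000252, 0.000195 and 0.000822). Of 8 other S100 genes, 4 rose and 1 fell in farnesol EAE, 4 rose in vehicle EAE, and 4 rose and 2 fell in untreated EAE, among the rises S100a11 at 0.91 ± 0.17, 0.95 ± 0.17 and 0.93 ± 0.17 in farnesol, vehicle and untreated EAE (adjusted p = 8.06e-05, 5.95e-05 and 0.000111). Mmp8, S100a8 and S100a9 also stand in the neutrophil list. Of the 66 genes tested from these 7 lists, none passed between EAE groups with edgeR. At an unadjusted edgeR p below 0.05 there were 1 in farnesol against vehicle, 7 in farnesol against untreated and 5 in vehicle against untreated EAE. Of all 18438 genes, 1031, 2659 and 1522 were at that p in the same order, and edgeR called 0.0922%, 1.87% and 0.0217%. DESeq2 and limma-voom each called 1 of the 66, in farnesol against untreated EAE, where they called 2.21% and 2.37% of all genes. Of the 28 genes named by rule, 21 passed in farnesol, 21 in vehicle and 22 in untreated EAE against naive. The rule took genes of smallest p in untreated EAE against naive, so these counts describe the choice and support nothing. With library set as a term the counts were 17, 5 and 4 in that order. Of all genes, 26.3%, 3.71% and 0.949% then passed in farnesol, vehicle and untreated EAE. The 4 in untreated EAE were Mmp8, S100a8, S100a9 and Vwf.

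**Figure D5:**
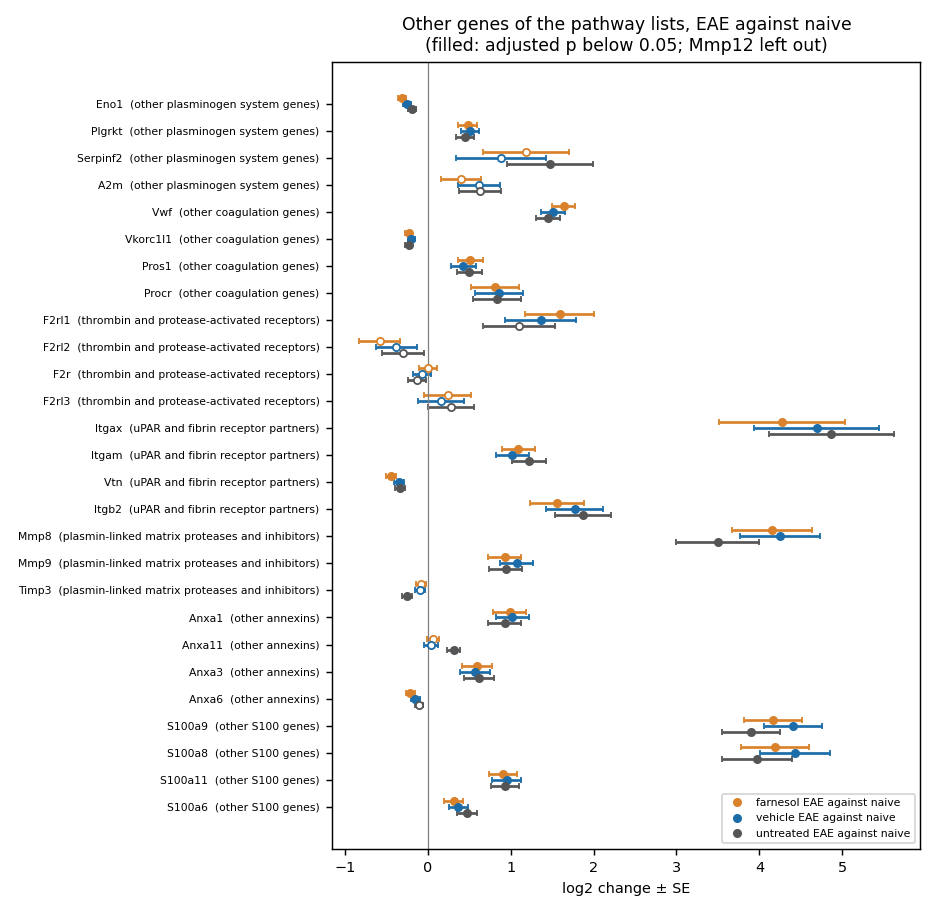
Log2 change ± SE against naive brain (horizontal axis) of the genes named from each of 7 pathway lists (rows), in farnesol, vehicle and untreated EAE, filled where adjusted p is below 0.05. The genes were named by smallest p in untreated EAE against naive, so the filled points are a description. Vwf, Itgax, Mmp8, S100a8 and S100a9 stand far to the right in all 3 groups and Vtn and Eno1 to the left; Mmp12 is left out because naive libraries held no count.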

How the data were processed

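The input was the authors' deposited table of raw read counts per gene for 36 brain libraries. The aligner was STAR 2.5 and the build mm10, per the submitters' processing notes. Kallisto also appears in the extraction protocol; which program counted, with which annotation and strand setting, was not stated in what was read here. Gene symbols, coordinates and exon lengths came from GENCODE M21. In edgeR 4.0.16 (R 4.3.3), low genes were removed by filterByExpr (minimum count 10), TMM factors were applied, and a quasi-likelihood fit had 1 coefficient for each of the 4 groups. P-values were adjusted by Benjamini-Hochberg over 18438 genes, with adjusted p below 0.05 called and no minimum fold. Each SE was obtained from the log2 change and the square root of its F statistic. The labels do not pair animals between groups, and same-numbered libraries had a median correlation of 0.01 in their deviations from the group means (51 pairs). No label says which animal a library came from, so p-values measure the spread between libraries, which may be technical.

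The 9 genes, the other gene lists and the marker lists were chosen with earlier results of these data known. From each pathway list, up to 4 genes of smallest p in untreated EAE against naive could be named, plus any called between EAE groups; Plg, the fibrinogen genes, F2 and F7 were named after their values were seen. For each of the 9 genes, tested genes of highest r over the EAE libraries were also named, and some results are not reported here. Alternatives were RLE and upper quartile scaling, no filter, a minimum count of 50, DESeq2 1.42.0, limma-voom (limma 3.58.1) with sample weights, only the groups compared, a replicate block, library set as a term, 1 set only, omission of libraries poor in cerebellar transcripts or with Sbp above 1 CPM, and omission of each library. Scripts were tested on simulated data.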

Additional observations from a re-analysis of the deposited data

Results flagged for a closer look

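Of 35 sets of 1 gene in 1 group, 3 held a library far from the others of its group, and chance marks about 1 in 20 groups. Plau measured 6.32 CPM in farnesol replicate 3, against 4.04 CPM or less in the other farnesol libraries. F10 measured 5.18 CPM in that same brain, against 2.56 CPM or less in the others. S100a10 measured 14.4 CPM in untreated replicate 1, against 20.2 CPM or more in the other untreated libraries.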

How the results depend on the processing

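The number of the 9 genes past the threshold kept within 1.5 times under the alternatives, with these exceptions. With library set as a term it was 0 in vehicle and in untreated EAE against naive. In farnesol against vehicle EAE it was 0 with upper quartile scaling, no filter, a minimum count of 50, limma-voom, only the 2 groups, the replicate block, library set as a term, 1 set only, and without the libraries low in cerebellar genes or with Sbp. In farnesol against untreated EAE it was 0 within 1 set. Leaving out each library gave 6 to 6 in farnesol, 6 to 6 in vehicle and 6 to 7 in untreated EAE against naive, 0 to 1 in farnesol against vehicle, 1 to 1 in farnesol against untreated and 0 to 0 in vehicle against untreated EAE. Plat in untreated EAE against naive was no longer called without untreated replicate 9 or naive replicate 4. The replicate block changed no other count of the 9 genes, and the numbers do not pair animals. Anxa2 in farnesol EAE against naive was 0.34 ± 0.14 with library set as a term and no longer called.

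Among the relations, that of Serpine2 with the endothelium score was -0.22 in the farnesol libraries alone. With a pseudocount of 2 CPM, 27 relations passed. Over all genes, the called counts with library set as a term were 684 in vehicle and 175 in untreated EAE against naive, 1 in farnesol against vehicle and 56 in farnesol against untreated EAE, against 5808, 4586, 17 and 345. With DESeq2 the last 2 were 48 and 567, with only the 2 groups 8 and 128, with the replicate block 7 and 202, with 1 set only 0 and 1, and without Sbp libraries 7 and 225. A minimum count of 50 gave 229, and leaving out libraries low in cerebellar genes 567, in farnesol against untreated EAE. In vehicle against untreated EAE the count was 4, and 0 to 43 under these alternatives. Leaving out each library gave 8 to 36 in farnesol against vehicle, 210 to 500 in farnesol against untreated and 0 to 15 in vehicle against untreated EAE. Upper quartile scaling gave 219 higher and 128 lower genes in farnesol against untreated EAE, against 177 and 168. The cause of these shifts was not tested.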
